A study of Homo sapiens with 8 samples.

Results

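The genes described here cover the route of glucose through the cell: 3 glucose transporters, the enzymes of glycolysis and of its fructose-2,6-bisphosphate control, the genes that make and export lactate, and the enzymes of glycogen and of glucose 1-phosphate. They were chosen by gene symbol from a list of 33, and all 33 symbols had a row among the 13730 genes of the deposited table. By step, the members were 3 transporters, 3 genes of the hexokinase and isomerase steps, 3 phosphofructokinases, 4 genes of fructose-2,6-bisphosphate control, 3 of the aldolase and triose isomerase steps, 6 of lower glycolysis, 5 lactate genes and 6 genes of glycogen and the phosphoglucomutases.

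The study asked how loss of thioredoxin reductase 1 (TrxR1, gene TXNRD1, the cytosolic selenoenzyme that keeps thioredoxin reduced) and withdrawal of glucose act together on tumour cells. RNA was sequenced from LN229-TAZ(4SA), a line derived from the human glioblastoma line LN229 whose name refers to the TAZ(4SA) form of the transcriptional co-activator TAZ. All 4 groups carry that background: control cells (EV) and TrxR1 knockout cells (KO), each grown either in regular DMEM with serum or under glucose deprivation, with 2 libraries per group. The labels do not say whether the knockout line is 1 clone, how long glucose was withheld or whether the 2 libraries of a group came from separate cultures, so every p-value below measures only the spread between these libraries. In what follows the groups are called EV regular, KO regular, EV deprived and KO deprived, and their libraries a and b, names that carry no order and pair nothing.

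Between 70083018 and 107229069 reads per library fell in the genes of the table, so that 1 read was worth 0.00948 to 0.0143 CPM (reads scaled to library size, as deposited on a log2 scale). The mRNA of TXNRD1 cannot serve as a check of the knockout, because a disrupted gene can still be transcribed: its mean CPM was 262 in EV regular, 247 in KO regular, 501 in EV deprived and 361 in KO deprived. TXNIP, a gene whose transcription follows glucose, fell from 86.3 to 10.5 mean CPM in EV cells and from 79.6 to 8.45 in KO cells, and its relative ARRDC4 fell from 6.28 to 2.43 and from 6.39 to 2.76. The glioma and glial genes VIM, NES, CD44, SOX2 and EGFR were present in all 8 libraries, whereas GFAP, the defining astrocyte filament, stayed between 0.675 and 1.41 CPM. These markers differed by medium and by knockout. Of the 7 tested in a list of 8, 3 rose and 3 fell in EV cells under deprivation (85.7%, beside 76.2% of all genes tested). In KO cells 3 rose and 4 fell (100%, beside 73.3%). SOX2 fell by 69.5% in EV cells and fell by 60.8% in KO cells, NES fell by 51% and fell by 48.8%, and OLIG2 rose 2.37-fold and 2.5-fold. Between KO and EV cells, 3 of the 7 differed in regular medium at a limma adjusted p under 0.05 (42.9%, beside 7.25% of all genes tested). They were SOX2 (log2 difference -0.51), S100B (-0.462) and EGFR (0.292). Under deprivation 5 differed (71.4%, beside 19.6%), 2 higher and 3 lower in KO cells. The summed level of the list ran from 5052 to 5256 CPM in the regular and from 4908 to 5285 CPM in the deprived libraries. Of 9 markers of leukocytes, endothelium, epithelium and neurons, 3 had a row in the table, and their summed level ran from 40.3 to 43.1 CPM in the regular and from 93 to 105 CPM in the deprived libraries. Of these, the neuronal SYT1 rose 3.23-fold in EV and 3.15-fold in KO cells and the macrophage marker CD68 2.08-fold and 1.85-fold, while the neuronal RBFOX3 stayed between 0.215 and 1.09 CPM. The part of these changes in the results on deprivation and on the knockout was not tested. A level in bulk RNA is an average, so fewer cells that express a gene and less of its RNA per cell cannot be told apart.

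Glucose enters most cells through facilitative transporters of the SLC2A family and is trapped as glucose 6-phosphate by hexokinase. Phosphofructokinase commits it to glycolysis and is switched on by fructose 2,6-bisphosphate, which the bifunctional PFKFB enzymes make and remove. Pyruvate is reduced to lactate by lactate dehydrogenase and leaves through the proton-coupled carriers of the SLC16A family, while glucose 6-phosphate can instead be turned by phosphoglucomutase into glucose 1-phosphate and stored as glycogen. Glioblastoma cells are known for high glucose uptake and lactate release.

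Levels differed widely between members. To compare genes, CPM was divided by the length of the annotated exons in kilobases. On that scale GAPDH, the glyceraldehyde 3-phosphate dehydrogenase, stood highest in EV regular with a mean level of 1949 CPM per kb, followed by pyruvate kinase PKM at 1103 and enolase ENO1 at 1007. LDHA at 446, ALDOA at 434 and the glycogen phosphorylase PYGB at 361 CPM per kb came next, and the lowest member was the aldolase ALDOC at 0.919. LDHA and ALDOA, neighbours in this order, had library SDs of 6.5 and 1.77 CPM per kb and did not overlap. PFKL and PGM1, at 20.9 and 20.6 CPM per kb, were closer than the SD of PGM1, which was 0.559. Together the 33 members took 1.79% to 2% of the reads in the table: 1.89% in both EV regular libraries, 2% and 1.95% in KO regular, 1.79% in both EV deprived libraries, and 1.83% and 1.81% in KO deprived.

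**Figure D1:**
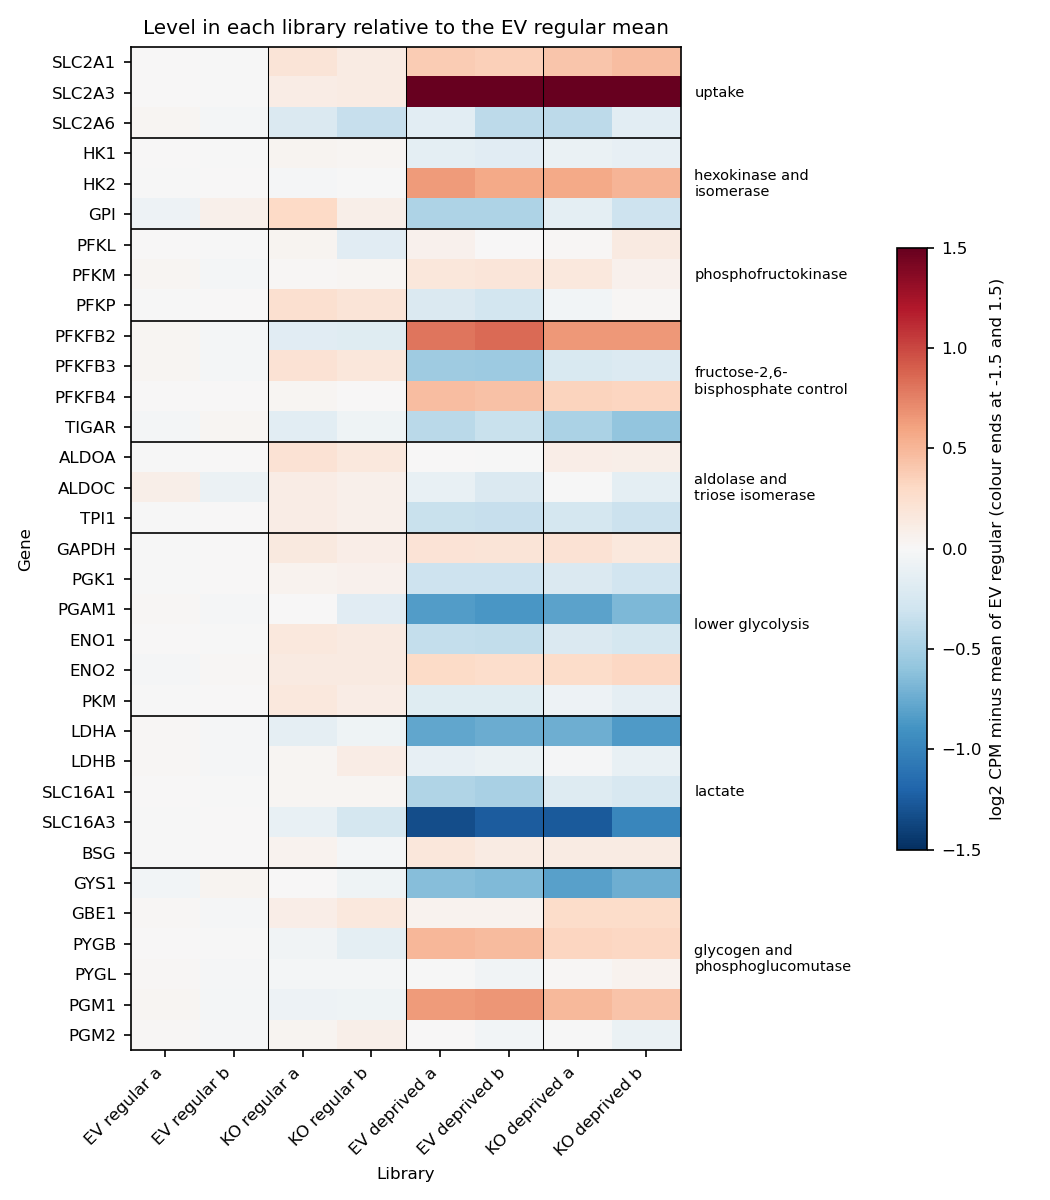
Each cell gives a member's log2 CPM in 1 library minus the mean of the 2 EV regular libraries, with genes in rows grouped by step and libraries in columns (colour ends at -1.5 and 1.5). The deprived libraries on the right hold the strong colours: SLC2A3, HK2, PFKFB2, PYGB and PGM1 are higher, and SLC16A3, PGAM1, LDHA and GYS1 are lower, in all 4 of them.

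Withdrawal of glucose was compared with regular medium first in EV cells and then in KO cells. In EV cells 11 members rose and 15 fell, which is 78.8% of the 33. Of all 13057 genes tested, 76.2% were called in that comparison (37.5% higher and 38.7% lower), so the share of members called was close to that of all genes. In KO cells 10 members rose and 17 fell, or 81.8%, beside 73.3% of all genes (36.5% higher and 36.8% lower). The median log2 fold change of the members was -0.11 in EV cells and -0.12 in KO cells, against -0.011 and -0.002 over all genes tested. A gene is called here when its adjusted p from limma, corrected by Benjamini and Hochberg over all genes tested, is under 0.05.

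In several steps the called members moved in both directions. Called the same way in both cell types were 24 members (72.7%), beside 65.1% of all genes tested. Of these, 9 rose (27.3% of 33, beside 32.4% of all genes): the transporters SLC2A1 and SLC2A3, hexokinase HK2, the bifunctional enzymes PFKFB2 and PFKFB4, enolase ENO2, the carrier partner BSG, glycogen phosphorylase PYGB and phosphoglucomutase PGM1. Another 15 fell in both (45.5%, beside 32.6% of all genes): HK1, GPI, PFKP, PFKFB3, TIGAR, TPI1, PGK1, PGAM1, ENO1, PKM, LDHA, LDHB, SLC16A1, SLC16A3 and GYS1. PFKM and GAPDH were called in EV cells alone, ALDOA, GBE1 and PGM2 in KO cells alone, and SLC2A6, PFKL, ALDOC and PYGL in no comparison. No member was called in opposite directions in the 2 cell types.

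**Figure D2:**
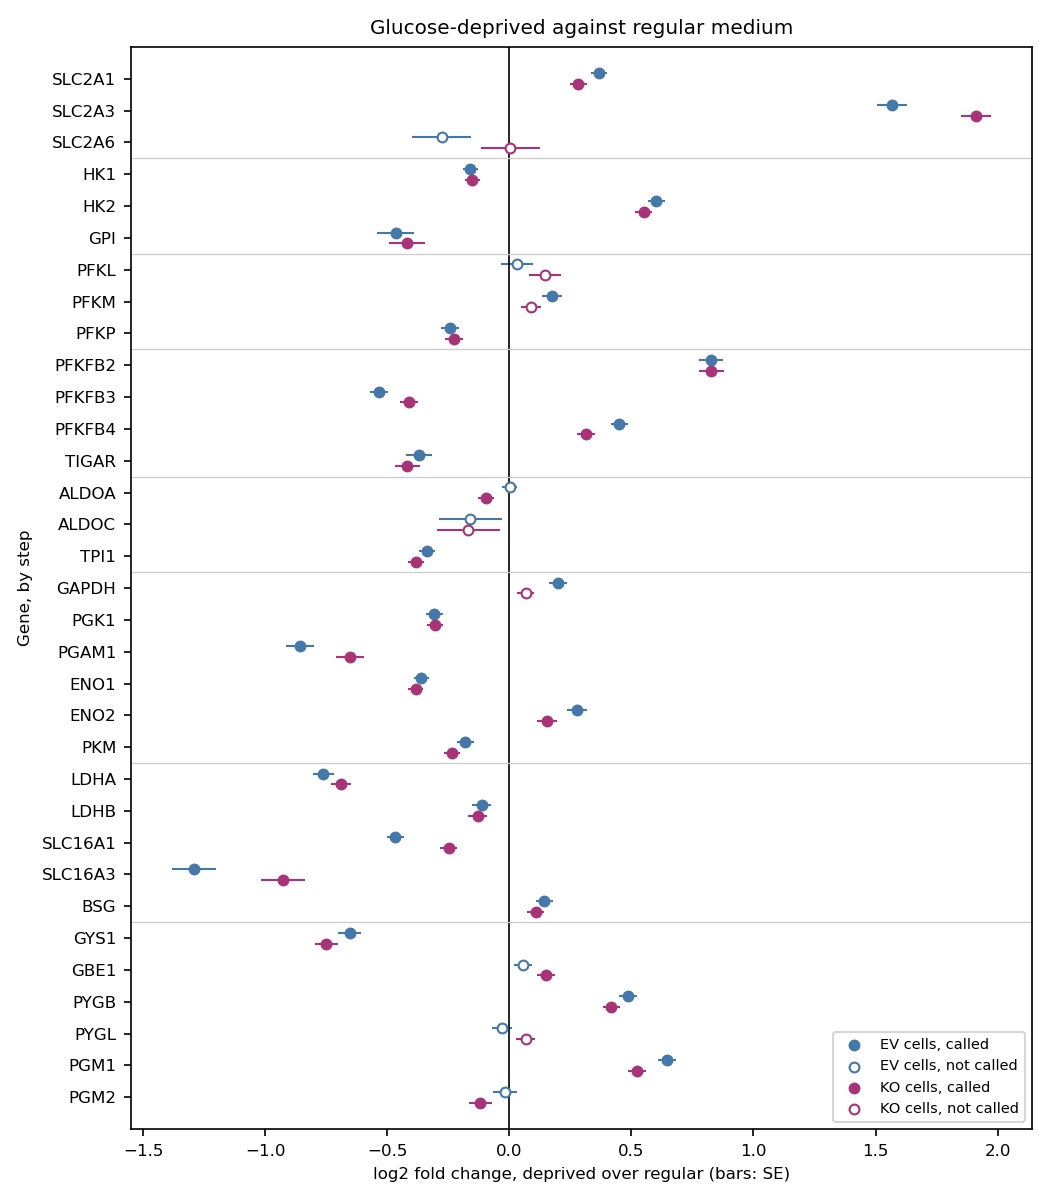
The log2 fold change of glucose-deprived over regular medium is plotted for each member in EV cells (blue) and KO cells (purple), with bars of 1 SE and filled points for called changes. SLC2A3 lies furthest to the right at 1.57 and 1.91, and SLC16A3 furthest to the left at -1.29 and -0.93.

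The stretches of promoter below belong to 4 members and were picked from those that hold the same short motif. These members moved in different directions: HK2 rose, and LDHA, SLC16A3 and PFKFB3 fell. The sequences come from RefSeq on GRCh38.p14 and cover the part of the 250 bases before an annotated start that lies outside annotated exons, on the plus strand, 5′ to 3′. They lie at chr2:74834920-74835169 for HK2, chr11:18394313-18394387 for LDHA, chr17:82228792-82229031 for SLC16A3 and chr10:6202694-6202865 for PFKFB3. Capitals mark ACGTG, the core of the element read by hypoxia-inducible factors, on either strand, and CACGTG, the E-box read by MYC and related factors, which holds ACGTG on both strands.
HK2: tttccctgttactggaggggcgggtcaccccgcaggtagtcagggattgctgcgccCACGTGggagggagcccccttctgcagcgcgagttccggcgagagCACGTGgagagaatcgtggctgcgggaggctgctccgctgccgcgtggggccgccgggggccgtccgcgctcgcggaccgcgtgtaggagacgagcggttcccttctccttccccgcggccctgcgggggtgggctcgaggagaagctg
LDHA: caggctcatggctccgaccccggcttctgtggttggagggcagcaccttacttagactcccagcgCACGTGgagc
SLC16A3: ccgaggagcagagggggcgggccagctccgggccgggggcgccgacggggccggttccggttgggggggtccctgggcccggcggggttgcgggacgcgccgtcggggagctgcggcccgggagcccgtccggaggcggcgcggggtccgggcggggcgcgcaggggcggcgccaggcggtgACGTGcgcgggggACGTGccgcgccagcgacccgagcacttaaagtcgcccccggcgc
PFKFB3: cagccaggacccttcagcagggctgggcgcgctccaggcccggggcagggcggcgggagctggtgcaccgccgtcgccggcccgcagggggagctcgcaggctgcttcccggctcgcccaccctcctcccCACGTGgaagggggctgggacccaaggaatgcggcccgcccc
In the printed stretches HK2 holds 2 E-boxes, LDHA and PFKFB3 hold 1 each, and SLC16A3 holds 2 copies of ACGTG outside an E-box. The stretches differ in length, so these counts do not compare the genes. The full 250-base window of LDHA, of which 175 bases lie in annotated exons and are not printed, holds 2 E-boxes, as does that of HK2.

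RefSeq windows of 250 bases were at hand for 30 of the 33 members, 58 windows in all, and not for SLC2A3, PFKFB2 and SLC16A1. ACGTG, searched on both strands, occurred in at least 1 window of 18 of the 30 matched members (60%), against 28.7% of the 10877 genes of the table with a window. A gene with more windows has more chances to hold a motif, and members had 1.93 windows per gene against 1.46. Counted by window, ACGTG occurred in 36.2% of the members' 58 windows, 22.1% of the 15893 windows of the table's genes and 18.5% of all 35116 windows of the RefSeq set, which also covers genes outside the table. CACGTG occurred in 8 members (26.7%, against 11.1% of the table's genes), and by window in 13.8%, 8.08% and 6.34% of these 3 sets. TGACNNNGC, the core of the antioxidant response element, occurred in 7 members (23.3% against 15.9%), and by window in 12.1%, 11.8% and 10.9%. TGATGNAA, the element read by C/EBP and ATF4 dimers, occurred in HK1 alone (3.33% against 2.39%), and by window in 3.45%, 1.73% and 3.14%. The members' windows had a median GC content of 69.6%, against 64.4% for the genes of the table, and the part of base composition in these shares was not tested. ACGTG was found in 4 of the 7 matched members that rose in both cell types and in 8 of the 14 that fell in both. A match describes letters only and is not a bound site.

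Uptake was the step where all called members rose. SLC2A3 (GLUT3, a transporter of high glucose affinity; chr12:7919230-7936275, minus strand) had 4.72 and 4.66 CPM in EV regular, 5.06 and 5.10 in KO regular, 13.9 and 14.0 in EV deprived, and 19.7 and 18.6 in KO deprived. The 4 groups did not overlap, and both deprived groups lay far above both regular groups. Its level rose 2.96-fold in EV cells (log2 fold change 1.57 ± 0.062 SE, limma adjusted p = 5.6e-09) and 3.76-fold in KO cells (1.91 ± 0.062, adjusted p = 1.5e-09). SLC2A1 (GLUT1, the main basal transporter; chr1:42925375-42959176, minus strand) had 340.2 and 339 CPM in EV regular, 388 and 370 in KO regular, 442 and 434 in EV deprived, and 454 and 468 in KO deprived. Both KO regular libraries lay between EV regular and the deprived libraries. SLC2A1 rose by 28.9% in EV cells (0.37 ± 0.034, adjusted p = 3.2e-06) and by 21.7% in KO cells (0.28 ± 0.034, adjusted p = 2.6e-05). Per kb of exon SLC2A1 still made up 95.0% to 97.6% of the summed level of these 3 transporters in every library, while the share of SLC2A3 went from 1.36% and 1.37% in EV regular to 3.06% and 3.15% in EV deprived. SLC2A6, a transporter found on lysosomes, lay between 2.54 and 3.41 CPM in all libraries and was not called (-0.28 ± 0.12, adjusted p = 0.063 in EV cells), though it passed the threshold there without the variance trend and with only the 2 groups in the fit (adjusted p = 0.05 and 0.042). SLC2A3 has a near-identical copy, SLC2A14, and how reads shared by such copies were counted is not given in the sources used here.

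The hexokinases moved in opposite directions. HK2 (the inducible hexokinase bound to mitochondria; chr2:74833981-74893359, plus strand), whose promoter stretch is printed above, had 131 CPM in both EV regular libraries, 129.8 and 130.2 in KO regular, 203 and 194 in EV deprived, and 194 and 187 in KO deprived. The regular and deprived libraries were fully separate, and EV and KO lay side by side within each medium. HK2 rose by 51.8% in EV cells (0.60 ± 0.036, adjusted p = 1.0e-07) and by 46.4% in KO cells (0.55 ± 0.036, adjusted p = 2.2e-07). HK1, the widely expressed hexokinase, lay between 171 and 177 CPM in the regular libraries and between 153 and 159.7 in the deprived ones. It fell by 10.4% in EV cells (-0.16 ± 0.031, adjusted p = 8.0e-04) and fell by 9.93% in KO cells (-0.15 ± 0.031, adjusted p = 0.0012). Per kb of exon HK2 therefore went from 37.4% and 37.6% of the summed hexokinase level in EV regular to 50.7% and 50% in EV deprived, and from 36.6% and 36.9% to 48.9% and 48.2% in KO cells. GPI, the isomerase that makes fructose 6-phosphate, had 234 and 258 CPM in EV regular, 302 and 260.4 in KO regular, 179 and 178 in EV deprived and 223 and 198 in KO deprived. It was the least even member of this step between libraries, and it fell by 27.6% in EV cells (adjusted p = 1.8e-04) and by 25.2% in KO cells (adjusted p = 4.3e-04).

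At phosphofructokinase, PFKP fell and the other isoforms did not. PFKP (the platelet-type subunit; chr10:3066333-3137712, plus strand) had 354 CPM in both EV regular libraries, 418 and 404 in KO regular, 305 and 293 in EV deprived, and 344 and 359 in KO deprived. The KO libraries lay above the EV libraries in each medium, the deprived libraries lay below the regular ones in each cell type, and KO deprived overlapped EV regular. PFKP fell by 15.5% in EV cells (-0.24 ± 0.036, adjusted p = 1.0e-04) and by 14.5% in KO cells (-0.23 ± 0.036, adjusted p = 1.9e-04). PFKM, the muscle-type subunit, rose by 13.0% in EV cells (0.18 ± 0.041, adjusted p = 0.0025), and in KO cells its difference of 0.09 ± 0.041 was not called. PFKL, the liver-type subunit, ranged from 54.6 to 67.8 CPM and was not called. Per kb of exon PFKP held 72.2% and 72.5% of the summed level in EV regular and 67.7% and 67.2% in EV deprived.

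The 4 genes that set fructose 2,6-bisphosphate all changed in both cell types, 2 up and 2 down. Of all genes tested, 65.1% were called the same way in both cell types. PFKFB3 (the isoform with the strongest kinase side; chr10:6144934-6254644, plus strand) had 95.1 and 91.8 CPM in EV regular, 109 and 105 in KO regular, 64.8 and 64.2 in EV deprived, and 79.5 and 80.8 in KO deprived. The groups did not overlap. PFKFB3 fell by 31.0% in EV cells (-0.54 ± 0.037, adjusted p = 2.9e-07) and by 24.9% in KO cells (-0.41 ± 0.037, adjusted p = 2.4e-06). PFKFB4, a bifunctional isoform, had 50.9 CPM in both EV regular libraries, 52.0 and 51.0 in KO regular, 70.0 and 69.2 in EV deprived, and 64.4 and 63.5 in KO deprived. It rose by 36.7% in EV cells (0.45 ± 0.036, adjusted p = 8.7e-07) and by 24.3% in KO cells (0.31 ± 0.036, adjusted p = 1.6e-05). PFKFB2, the heart-type isoform, rose from 14.0 and 13.4 to 23.9 and 24.7 CPM in EV cells and from 12.2 and 12.1 to 21.6 in both KO libraries, 1.77-fold in each (0.83 ± 0.051). TIGAR, which removes fructose 2,6-bisphosphate and is known as a p53 target, fell by 22.6% in EV cells (-0.37 ± 0.053) and by 25.1% in KO cells (-0.42 ± 0.053). In regular medium PFKFB3 was the most abundant of the 3 PFKFB genes per kb of exon in all 4 libraries, and in deprived medium PFKFB4 was. In CPM, not divided by exon length, PFKFB4 exceeded PFKFB3 in EV deprived (ratio 1.08 in both libraries). In KO deprived it did not (0.81 and 0.79). PFKFB3 went from 52.6% and 51.9% of their summed level in EV regular to 35% and 34.9% in EV deprived, and from 55.7% and 55.4% to 41.8% and 42.5% in KO cells.

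**Figure D3:**
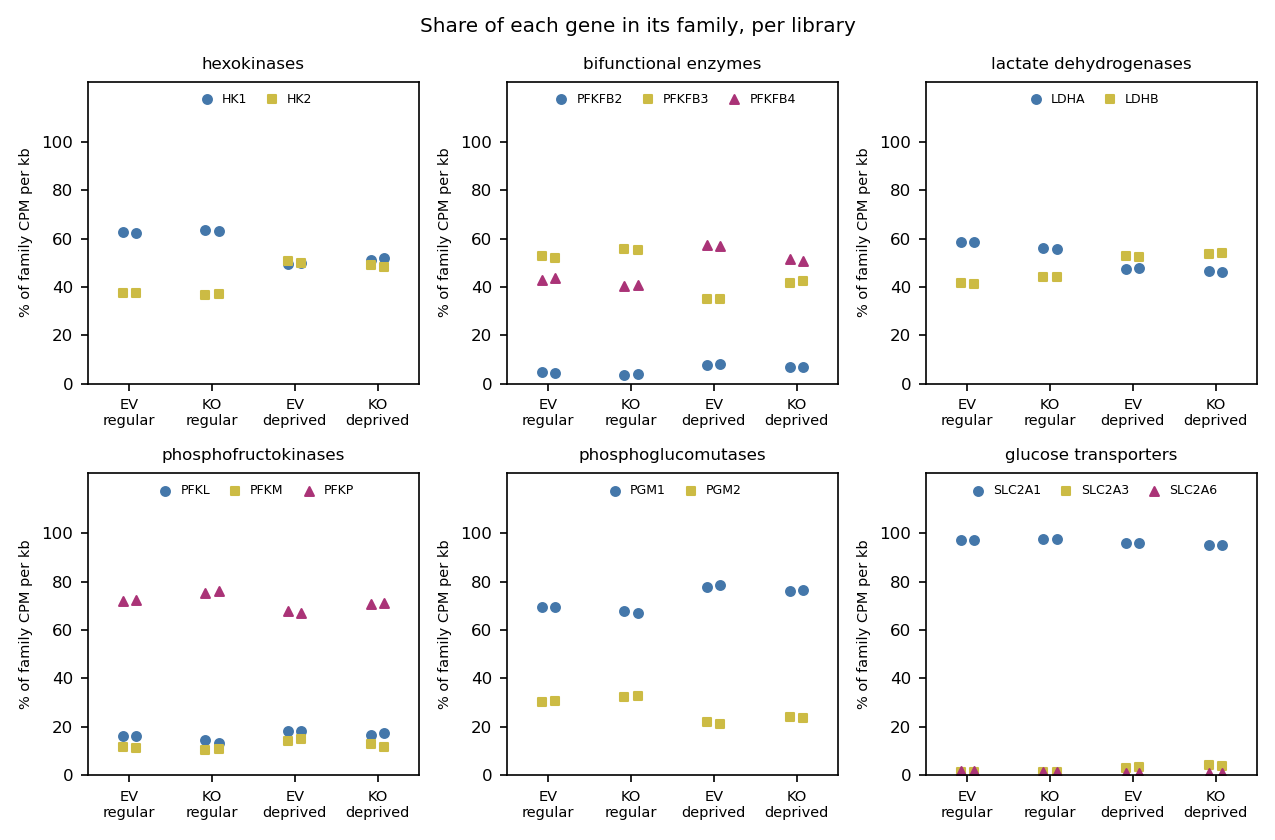
For 6 gene families, the share of each gene in the family's summed CPM per kb of exon is plotted for both libraries of the 4 groups. On this scale HK2 and HK1 meet near 50% in deprived medium, and SLC2A1 stays at 95.0% or more of its family. PFKFB3 and PFKFB4 change places, and so do LDHA and LDHB, but this depends on the exon lengths used as divisors. In CPM, LDHA stays above LDHB in all libraries, and PFKFB3 stays above PFKFB4 in KO deprived.

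From fructose 1,6-bisphosphate to pyruvate most steps fell. ALDOA, the main aldolase, had 1041 and 1047 CPM in EV regular and 1045 and 1043 in EV deprived, a difference of 0.001 ± 0.032 that was not called. In KO cells it fell by 6.42%, from 1218 and 1163 to 1121 and 1108 CPM (adjusted p = 0.021). That call was lost without KO regular a (adjusted p = 0.13), without the variance trend (0.058) and with only the 2 groups in the fit (0.11). ALDOC, the brain-type aldolase, stayed between 1.61 and 2.02 CPM and was not called. TPI1, the triose phosphate isomerase, fell by 20.8% in EV cells (-0.34 ± 0.032, adjusted p = 3.4e-06) and by 23.3% in KO cells (-0.38 ± 0.032, adjusted p = 1.4e-06).

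PGAM1 fell the furthest of the lower glycolytic genes. PGAM1 (phosphoglycerate mutase; chr10:97426160-97433441, plus strand) had 136 and 133 CPM in EV regular, 135 and 119 in KO regular, 75.2 and 73.6 in EV deprived, and 77.3 and 84.3 in KO deprived. Every deprived library lay below every regular one. The fall was 44.8% in EV cells (-0.86 ± 0.058, adjusted p = 2.6e-07) and 36.4% in KO cells (-0.65 ± 0.058, adjusted p = 2.4e-06). ENO1, the main enolase, fell from 2435 and 2405 to 1890 and 1881 CPM in EV cells (-0.36 ± 0.032, adjusted p = 1.9e-06) and from 2691 and 2647 to 2077 and 2013 CPM in KO cells (-0.38 ± 0.032, adjusted p = 1.3e-06). ENO2, the neuronal enolase, moved the other way, by 21.3% in EV cells (0.28 ± 0.040, adjusted p = 9.3e-05) and 11.3% in KO cells (0.15 ± 0.040, adjusted p = 0.0054). ENO1 remained the dominant enolase, at 98.3% to 99.0% of the summed level per kb. Phosphoglycerate kinase PGK1 fell by 19.2% in EV cells and fell by 19.1% in KO cells. Pyruvate kinase PKM fell by 11.7% in EV cells and fell by 15% in KO cells.

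GAPDH, the most abundant member, went the opposite way to its neighbours in the pathway. It had 4307 and 4360 CPM in EV regular, 4784 and 4634 in KO regular, 4990 and 4959 in EV deprived, and 5049 and 4820 in KO deprived. It rose by 14.8% in EV cells (0.20 ± 0.036, adjusted p = 4.3e-04). In KO cells, where the regular libraries already lay above those of EV, the difference was 0.07 ± 0.036 and was not called. Counts for some members are less certain because reads can be shared: the annotation names 62 pseudogenes of GAPDH and 13 of PGAM1. Exons of the gene AC093512.2 cover 1636 of the 2407 exon bases of ALDOA, and the antisense gene AC093512.1 overlaps ALDOA too. Of the exon length of LDHB 56.2%, of that of TIGAR 45.3% and of that of GAPDH 19% overlaps exons of other annotated genes. The library kit does not mark strand, so reads from overlapping genes on opposite strands cannot be told apart.

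The lactate genes fell, apart from BSG. LDHA (the lactate dehydrogenase subunit that favours lactate; chr11:18394388-18408425, plus strand) had 1337 and 1310 CPM in EV regular, 1204 and 1265 in KO regular, 772 and 789 in EV deprived, and 796 and 736 in KO deprived. EV and KO overlapped in deprived medium, and regular and deprived libraries were far apart. LDHA fell by 41.0% in EV cells (-0.76 ± 0.042, adjusted p = 5.8e-08) and by 38.0% in KO cells (-0.69 ± 0.042, adjusted p = 1.4e-07). LDHB, the subunit that favours pyruvate, fell by 7.51% in EV cells and fell by 8.64% in KO cells. The EV call was lost when EV regular a or b or EV deprived a or b was left out (adjusted p = 0.057 to 0.16) and without the variance trend (0.074), and the KO call without KO deprived b (0.082) or KO regular b (0.097) and with only the 2 groups in the fit (0.052). Per kb of exon LDHA went from 58.6% and 58.7% of the summed lactate dehydrogenase level in EV regular to 47.4% and 47.7% in EV deprived, and from 56.0% and 55.8% to 46.4% and 46.0% in KO cells. In CPM, not divided by exon length, LDHA stayed above LDHB in every library. That ratio was 2.65 and 2.66 in EV regular, 1.68 and 1.70 in EV deprived, and 1.62 and 1.60 in KO deprived.

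SLC16A3 (MCT4, the lactate exporter typical of glycolytic cells; chr17:82228397-82261129, plus strand) fell the furthest of all members. It had 19.4 CPM in both EV regular libraries, 17.9 and 16.1 in KO regular, 7.7 and 8.13 in EV deprived, and 8.08 and 9.87 in KO deprived. The deprived libraries of the 2 cell types overlapped. Its level fell by 59.1% in EV cells (-1.29 ± 0.091, adjusted p = 3.5e-07) and by 47.4% in KO cells (-0.93 ± 0.091, adjusted p = 4.9e-06). SLC16A1 (MCT1, the widely expressed lactate and pyruvate carrier; chr1:112911847-112957013, minus strand) had 142 and 141 CPM in EV regular, 144 and 145 in KO regular, 104 and 101 in EV deprived, and 123 and 119.6 in KO deprived. KO deprived lay between EV deprived and the regular libraries without overlap. SLC16A1 fell by 27.7% in EV cells (-0.47 ± 0.034, adjusted p = 4.1e-07) and by 15.9% in KO cells (-0.25 ± 0.034, adjusted p = 5.7e-05). BSG, the membrane glycoprotein that carries both transporters to the surface, rose by 10.4% in EV cells (0.14 ± 0.035, adjusted p = 0.0037) and by 7.76% in KO cells (0.11 ± 0.035, adjusted p = 0.018). The BSG call in KO cells was lost without KO regular b (adjusted p = 0.12), without the variance trend (0.056) and with only the 2 groups in the fit (0.080).

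In glycogen metabolism the synthase fell and the phosphorylase rose. GYS1 (glycogen synthase; chr19:48968125-48993310, minus strand) had 61.8 and 65.6 CPM in EV regular, 63.9 and 61.0 in KO regular, 40.8 and 40.2 in EV deprived, and 36.1 and 38.2 in KO deprived. It fell by 36.4% in EV cells (-0.65 ± 0.047, adjusted p = 4.1e-07) and by 40.5% in KO cells (-0.75 ± 0.047, adjusted p = 1.6e-07). PYGB (brain-type glycogen phosphorylase, which releases glucose 1-phosphate; chr20:25248069-25298014, plus strand) had 1496 and 1486 CPM in EV regular, 1437 and 1346 in KO regular, 2107 and 2073 in EV deprived, and 1866 and 1849 in KO deprived. The order EV deprived, KO deprived, EV regular, KO regular held without overlap. PYGB rose by 40.2% in EV cells (0.49 ± 0.036, adjusted p = 5.1e-07) and by 33.6% in KO cells (0.42 ± 0.036, adjusted p = 1.9e-06). The ratio of GYS1 to PYGB in CPM was 0.041 and 0.044 in EV regular and 0.019 in both EV deprived libraries. PGM1, which interconverts glucose 1-phosphate and glucose 6-phosphate, had 75.4 and 72.5 CPM in EV regular, 70.4 and 70.6 in KO regular, 115 and 117 in EV deprived, and 103 and 99.5 in KO deprived. It rose by 56.5% in EV cells (0.65 ± 0.037, adjusted p = 7.6e-08) and by 43.8% in KO cells (0.52 ± 0.037, adjusted p = 4.1e-07).

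The other 3 glycogen members changed little or not at all. GBE1, the glycogen branching enzyme, rose by 11% in KO cells, from 54.0 and 56.3 to 61.3 and 61.1 CPM (0.15 ± 0.038, adjusted p = 0.0047), and in EV cells had a difference of 0.06 ± 0.038. PGM2, a phosphoglucomutase and phosphopentomutase, fell by 7.88% in KO cells (adjusted p = 0.048). That call was lost when any 1 of 7 libraries was left out, all but KO deprived a (adjusted p = 0.052 to 0.26), without the variance trend (0.062) and with only the 2 groups in the fit (0.12). PYGL, the liver-type phosphorylase, lay between 50.8 and 54.9 CPM in all 8 libraries and was not called.

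**Figure D4:**
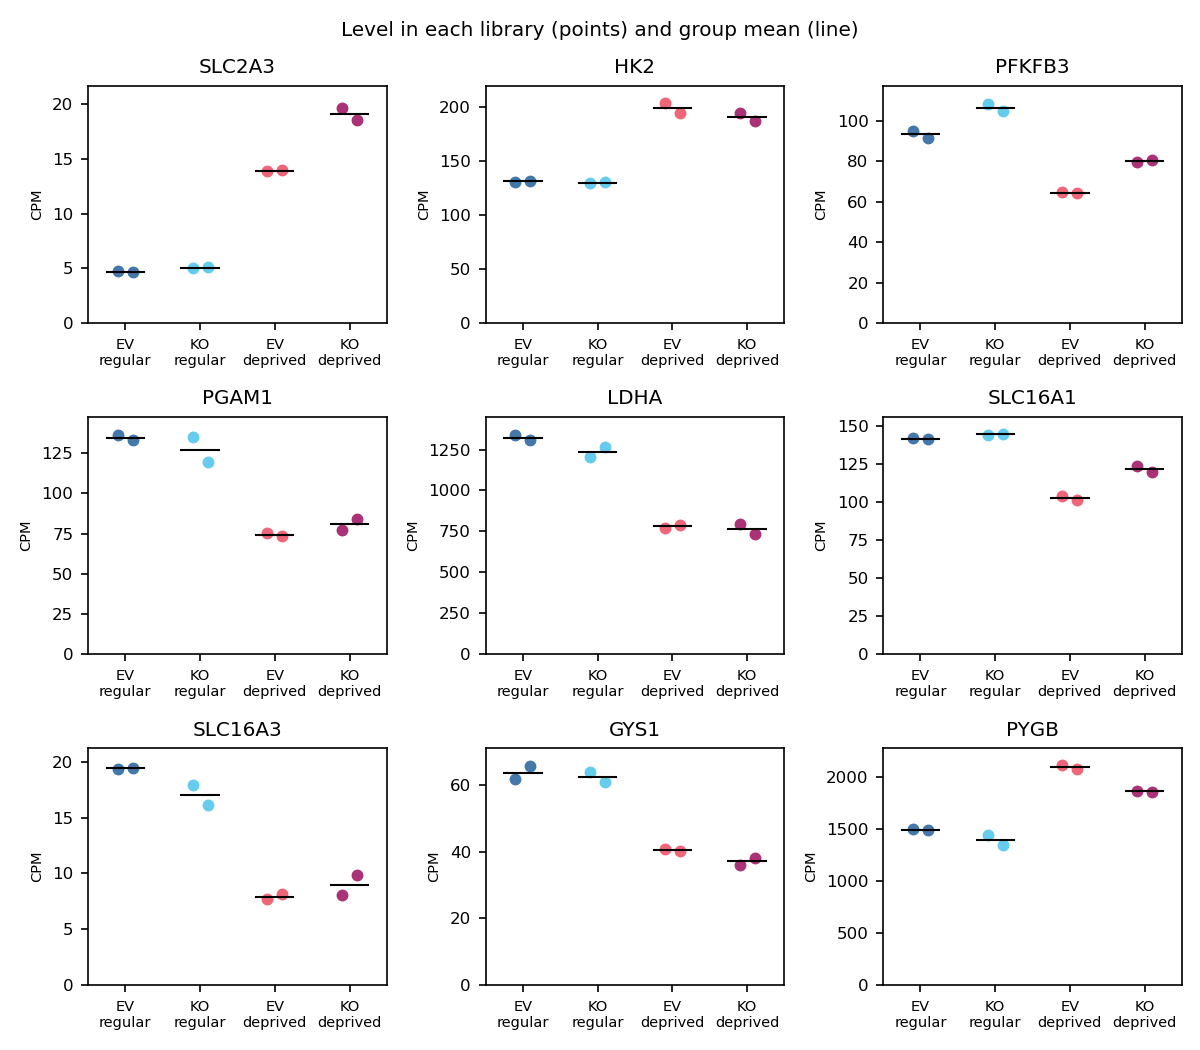
CPM of 9 members is plotted by group, with a point per library and a line at the group mean, on axes that start at 0. SLC2A3, HK2 and PYGB are higher in all deprived libraries, and PFKFB3, PGAM1, LDHA, SLC16A1, SLC16A3 and GYS1 are lower.

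The knockout was then compared with EV within each medium, on the same libraries as the deprivation comparisons, so the groups are shared and the values are given side by side. In regular medium 6 members were higher in KO cells and none was lower (18.2% of 33), beside 7.25% of all genes tested (3.87% higher and 3.38% lower). The largest of these was PFKP, which was higher by 16.1% (log2 difference 0.22 ± 0.036, adjusted p = 0.0068). ALDOA was higher by 14.1% (0.19 ± 0.032, adjusted p = 0.0077), PFKFB3 by 14.2% (0.19 ± 0.037, adjusted p = 0.014) and the transporter SLC2A1 by 11.4% (0.16 ± 0.034, adjusted p = 0.023). ENO1 was higher by 10.3% (0.14 ± 0.032, adjusted p = 0.025) and PKM by 9.45% (0.13 ± 0.034, adjusted p = 0.045). In each of these 6 genes both KO regular libraries lay above both EV regular libraries. This order adds no support, because the genes were called on these same libraries. None of the 6 calls held under every alternative: all were lost without EV regular a or without EV regular b (adjusted p = 0.083 to 0.30) and without the variance trend (0.053 to 0.12). SLC2A1, ENO1 and PKM also lost their calls without EV deprived a or b (0.055 to 0.095) and without KO regular a (0.097 to 0.17), PFKFB3 without KO regular a (0.058) and PKM without KO regular b (0.057).

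The members not called in regular medium had log2 differences from -0.28 for SLC2A6 to 0.19 for GPI. HK2 and SLC16A1 differed by -0.01 ± 0.036 and 0.03 ± 0.034 there. The median log2 difference of the 33 members was 0.035, against -0.003 for all genes tested.

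**Figure D5:**
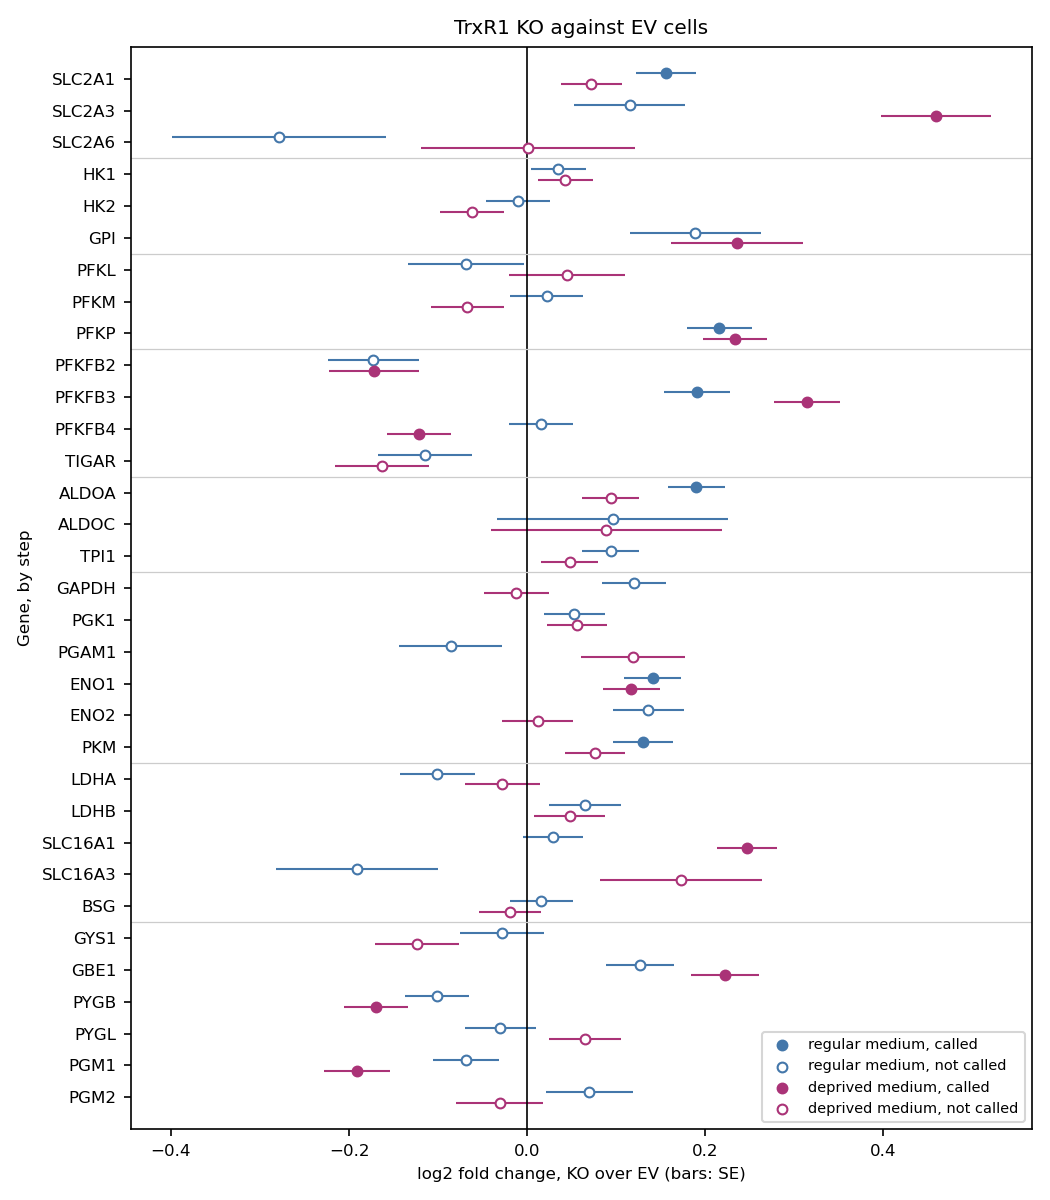
The log2 fold change of KO over EV cells is plotted for each member in regular (blue) and glucose-deprived medium (purple), with bars of 1 SE and filled points for called changes. The axis spans less than that of the deprivation comparison; SLC2A3 at 0.46 and PFKFB3 at 0.31, both in deprived medium, are the largest called differences.

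Under glucose deprivation 7 members were higher and 4 were lower in KO cells than in EV cells (33.3% of 33), beside 19.6% of all genes tested (9.04% higher and 10.6% lower). SLC2A3 was higher by 37.4% (0.46 ± 0.062, adjusted p = 9.3e-04), PFKFB3 by 24.4% (0.31 ± 0.037, adjusted p = 4.1e-04) and SLC16A1 by 18.7% (0.25 ± 0.034, adjusted p = 9.3e-04). PFKP was higher by 17.5% (0.23 ± 0.036, adjusted p = 0.0020) and the branching enzyme GBE1 by 16.6% (0.22 ± 0.038, adjusted p = 0.0038). These 5 calls held under every alternative tried. GPI was higher by 17.8% (adjusted p = 0.049) and ENO1 by 8.44% (adjusted p = 0.028). The GPI call was lost without EV deprived a (0.18) or b (0.19), EV regular a or b (0.057 each) or KO deprived a (0.21), with no filter (0.053), without the variance trend (0.13) and with voom weights (0.054). The ENO1 call was lost without EV deprived a (0.14) or b (0.16), EV regular a or b (0.07 each) or the variance trend (0.079), and with only the 2 groups in the fit (0.098).

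The 4 members lower in KO cells under deprivation were 2 bifunctional enzymes, a phosphorylase and a phosphoglucomutase. PGM1 was lower by 12.4% (log2 difference -0.19 ± 0.037, adjusted p = 0.0065), PYGB by 11.1% (-0.17 ± 0.036, adjusted p = 0.0098), PFKFB2 by 11.2% (-0.17 ± 0.051, adjusted p = 0.039) and PFKFB4 by 8.06% (-0.12 ± 0.036, adjusted p = 0.039). In all 4 genes both KO deprived libraries lay below both EV deprived libraries and above all regular ones. This order adds no support to the calls, which came from the same libraries. The PGM1 call was lost without EV deprived b (adjusted p = 0.069) and the PYGB call without EV deprived a (0.089) or b (0.060). The PFKFB2 and PFKFB4 calls were each lost without any 1 of the EV or KO deprived libraries or the EV regular libraries (0.067 to 0.22 and 0.055 to 0.20) and with only the 2 groups in the fit (0.054 and 0.071), and the PFKFB4 call also without the variance trend (0.063). The median over the 33 members was 0.048, against -0.006 for all genes tested.

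PFKP, PFKFB3 and ENO1 were higher in KO cells in both media (9.09% of 33, beside 3.25% of all genes tested called the same way in both, 1.7% higher and 1.55% lower), and no member was lower in both. HK2, LDHA, GAPDH and TPI1, among others, were called for the knockout in neither medium. For LDHA the differences were -0.10 ± 0.042 in regular and -0.03 ± 0.042 in deprived medium.

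Whether the response to deprivation differed between the cell types was tested directly, as the log2 fold change in KO cells minus that in EV cells. SLC16A1 was the single member called (3.03% of 33), beside 4.31% of all genes tested (2.31% higher and 2.01% lower). Its fall was smaller in KO cells by 0.22 ± 0.048 on the log2 scale (adjusted p = 0.032), and the call was lost without the variance trend (0.10), without EV regular a (0.18) or b (0.14), EV deprived a (0.11) or b (0.15), or KO regular a (0.055). SLC2A3, with a stronger rise in KO cells by 0.34 ± 0.088, missed the threshold (adjusted p = 0.056) and passed it with log2(CPM + 1) (0.043) and without the variance trend (0.046). SLC16A3 had the largest difference, 0.36 ± 0.13, at an adjusted p of 0.13, and was called only without KO deprived a (0.51, adjusted p = 0.014). The differences of the other members ran from -0.14 for PFKFB4 to 0.28 for SLC2A6, with a median of -0.018 over all 33 and -0.005 over all genes tested.

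Other genes of the same pathways were counted from fixed lists, each to be read beside the 76.2% of all genes tested that were called under deprivation in EV cells and the 73.3% in KO cells. Of 12 tested among the rarer transporters and glycolytic genes, 4 rose and 6 fell in EV cells under deprivation, and 4 rose and 5 fell in KO cells (83.3% and 75% called, near the shares of all genes). PGAM2, the muscle mutase, fell by 2.11 and 1.98 on the log2 scale, from a mean of 16.6 to 3.84 CPM in EV cells, and GAPDHS, the sperm-type dehydrogenase, by 0.83 and 0.82. SLC2A10, a transporter, was higher by 1.39 and 1.47. MINPP1, an inositol polyphosphate phosphatase that can also act on 2,3-bisphosphoglycerate, was the one gene of this list with a called difference between the cell types (0.40, limma adjusted p = 0.0079). It fell in EV cells by 0.41 and had a log2 fold change of -0.002 in KO cells. The KO cells started lower: their log2 difference from EV cells was -0.246 in regular medium (limma adjusted p = 0.013) and 0.158 under deprivation (0.038).

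Among 4 further lactate genes, 2 rose and 2 fell in EV cells and 2 rose and 1 fell in KO cells (100% and 75% called, of 4 genes only). HAGH, which ends the methylglyoxal pathway to D-lactate, rose by 0.64 and 0.40, while GLO1, which starts it, fell by 0.41 and 0.30, on the log2 scale in EV and KO cells. The carrier SLC16A7 (MCT2) rose by 0.42 and 0.35. EMB, a second partner of the SLC16A carriers, fell by 0.39 in EV cells and had a log2 fold change of 0.052 in KO cells, and this difference was called (0.44, adjusted p = 0.019).

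Of 19 further glycogen genes, 8 rose and 7 fell in EV cells and 8 rose and 5 fell in KO cells (78.9% and 68.4% called, beside 76.2% and 73.3% of all genes). PPP1R3F, a subunit that directs protein phosphatase 1 to glycogen, fell by 0.66 and 0.52, and PHKB, the beta subunit of phosphorylase kinase, rose by 0.44 and 0.36. PPP1R3C, another glycogen-targeting subunit, rose by 0.87 in EV cells and by 1.39 in KO cells, and this difference was not called (0.516 ± 0.22, limma adjusted p = 0.19). PPP1R3B had a log2 fold change of 0.017 in EV cells and rose by 0.418 in KO cells, and this difference was called (0.401, limma adjusted p = 0.04). UGP2, which makes the UDP-glucose used by glycogen synthase, was lower in KO cells by 0.27 in regular medium (adjusted p = 0.013). In gluconeogenesis, 3 of 4 genes tested rose in both cell types, a share of 75% beside 37.5% of all genes higher in EV cells and 36.5% in KO cells, and none fell. PCK2, the mitochondrial phosphoenolpyruvate carboxykinase, rose from a mean of 18.7 to 130.2 CPM in EV cells and from 20.5 to 115 CPM in KO cells, a log2 fold change of 2.80 and 2.48. The rise of PCK2 was smaller in KO cells, and this difference was called (-0.315, limma adjusted p = 0.019). PC, the pyruvate carboxylase, rose by 1.08 and 0.97, and G6PC3 by 0.28 and 0.17.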

How the data were processed

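RNA from 8 libraries (4 groups of 2) was extracted with TRIzol and made into libraries with the SMART-Seq mRNA HT and Nextera XT kits, per the labels' protocols. The authors deposited 1 table of log2 CPM for 13730 genes. HISAT2, edgeR and GRCh38 are named in the submitters' processing notes, with no versions; the counter, its annotation and any filter on genes are not given in the sources used here. Columns were given to groups by their headers, of which the suffix GlcN was read as glucose-deprived; the headers hold no replicate number, so libraries a and b are only names. All 8 value columns were used.

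The deposited log2 values were found to hold whole reads: with an offset of 0.0230 CPM, 100% of values came out whole within 0.05 of a read. CPM in the text is the deposited log2 value turned back, less that offset. Fold changes and percent changes are antilogs of log2 differences.

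Differences were tested with limma 3.58.1 in R 4.3.3 on the deposited log2 CPM (two-sided, all 4 groups in 1 fit with 4 residual degrees of freedom, variance trend), for the 13057 genes whose log2 CPM averaged 0 or more, and p-values were adjusted by Benjamini and Hochberg over these genes; 673 genes were below the filter, none of them a member. The script was tested on simulated data. Alternatives were no filter, a minimum mean log2 CPM of 2, no variance trend, median-of-ratios scaling, log2(CPM + 1), voom weights on the rebuilt reads, the 2 compared groups alone, and each library left out in turn. Exon lengths, overlaps and pseudogenes came from GENCODE 29 (GRCh38) and promoter windows from RefSeq (GRCh38.p14).

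Every member is named. Genes of other lists were named up to 3 per list and comparison, by smallest adjusted p among those called. The members and lists were chosen with earlier results of these data known.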

Additional observations from a re-analysis of the deposited data

Results flagged for a closer look

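SLC16A1, the lactate and pyruvate carrier MCT1, was flagged because its response to glucose deprivation differed between the cell types by the interaction test of limma. The log2 difference between the response in KO cells and that in EV cells was 0.22 (limma adjusted p = 0.032). The mean went from 141 to 102 CPM in EV cells and from 144 to 121 CPM in KO cells. Both KO deprived libraries lay above both EV deprived libraries. This order adds no support, because the gene was flagged on these same libraries. The call was lost without any 1 of the EV libraries, without KO regular a and without the variance trend (limma adjusted p = 0.055 to 0.18). As the single member called, SLC16A1 was 3.03% of the members, beside 4.31% of all genes tested.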

How the results depend on the processing

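No paired analysis was possible because the columns of the deposited table carry no replicate numbers, so a replicate block could not be fitted. No member changed direction past a call under any alternative. With 1 library left out, the number of members higher in KO cells ran from 0 to 8 in regular medium (6 with all libraries), the number lower in KO cells under deprivation from 0 to 5 (4 with all), the number with a positive interaction from 0 to 2 (1 with all) and the number with a negative interaction from 0 to 1 (0 with all). Without the variance trend, 0 members were higher in KO cells in regular medium. With only the 2 groups compared, 2 members were lower in KO cells under deprivation, and with log2(CPM + 1) 2 members had a positive interaction. In these cases the cause was not tested. The counts of members changed by glucose deprivation stayed at 11 rising and 14 to 16 falling in EV cells, and at 9 to 12 rising and 14 to 17 falling in KO cells. Of 1320 member results with 1 library left out, 67 lost a call and 19 gained one. The gains were, for the knockout in regular medium, GAPDH (without KO deprived a or b, adjusted p = 0.018 each), TPI1 (same libraries, 0.045 and 0.044) and GPI (without KO regular b, 0.045), and under deprivation ALDOA (without KO regular a or b, 0.041 each), TIGAR (0.04 without either KO regular library, 0.024 without KO deprived a) and SLC16A3 (without KO deprived a, 0.021). For deprivation they were SLC2A6 in EV cells (without EV deprived a, 0.035, or KO deprived a, 0.05) and, in KO cells, GAPDH and PFKM (without KO deprived b, 0.015 and 0.018) and PFKL (without KO deprived a, 0.03, or KO regular a, 0.0027), and for the interaction GAPDH and SLC16A3 (without KO deprived a, 0.028 and 0.014). With only the 2 groups in the fit, GAPDH was also called for the knockout in regular medium (0.042) and SLC2A6 for deprivation in EV cells (0.042), as it was without the variance trend (0.05).

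Over all genes tested, leaving out 1 library gave 168 to 1414 called genes for the knockout in regular medium (946 with all), 852 to 3058 under deprivation (2561) and 147 to 1579 for the interaction (563). The other alternatives gave 433 to 998, 1839 to 2577 and 223 to 616. The calls for deprivation ranged from 8675 to 10614 in EV cells and from 8382 to 9963 in KO cells. Every alternative kept 25 of the 26 member calls of EV cells, all but LDHB, and 23 of the 27 of KO cells, all but ALDOA, BSG, LDHB and PGM2.

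With 2 libraries per group, the median SE of a log2 difference was 0.055 over all genes, at a depth of at least 70083018 reads per library. Protein and glucose flux were not measured in these files, and the mRNA of TXNRD1 does not test the knockout.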

Other observations

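Under glucose deprivation 76.2% of all genes tested were called in EV cells (37.5% higher and 38.7% lower) and 73.3% in KO cells (36.5% and 36.8%), and the counts below are given beside these shares. Of 13 genes tested that carry pyruvate into mitochondria and control its entry, 7 rose and 3 fell in EV cells and 7 rose and 4 fell in KO cells, 76.9% and 84.6% called. PDK4, a kinase that switches off pyruvate dehydrogenase, rose by 1.32 on the log2 scale in EV cells and by 2.31 in KO cells, from means of 2.21 and 1.64 to 5.56 and 8.22 CPM, and the difference between the cell types was called (0.99, limma adjusted p = 0.0025). PDP1, the phosphatase that switches the complex back on, rose by 0.46 and 0.43. Of 11 genes tested of the hexosamine pathway, which draws on fructose 6-phosphate, 7 rose and 4 fell in EV cells and 6 rose and 3 fell in KO cells, 100% and 81.8% called. GFPT1, its rate-limiting enzyme, rose from a mean of 82.9 to 309.8 CPM in EV cells and from 82.4 to 295 CPM in KO cells, PGM3 rose by 0.98 and 1.04, and the O-GlcNAc transferase OGT by 0.73 and 0.53, on the log2 scale. GFPT2 rose by 0.19 in EV and 0.547 in KO cells, and this difference was called (0.357, limma adjusted p = 0.047).

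Of 20 tested genes of the hypoxia-inducible factor pathway, 11 rose and 6 fell in EV cells and 12 rose and 7 fell in KO cells, 85% and 95% called. VEGFA, the angiogenic factor, rose by 2.48 and 2.38, MXI1, a MAX-binding repressor, by 1.89 and 1.82, and DDIT4, an inhibitor of mTORC1, by 1.82 and 2.49 on the log2 scale. AK4, a mitochondrial adenylate kinase, fell by 1.57 and 1.15. The differences between cell types of DDIT4 (0.67, adjusted p = 0.0013) and AK4 (0.42, adjusted p = 0.011) were called. LDHA, SLC16A3, PFKFB3 and PGK1, which are also known targets of these factors, fell under the same treatment, while SLC2A1, SLC2A3, HK2 and PFKFB4 rose.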
